A study of Mus musculus with 217 samples.

Results

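Transcription in the striatum of 6-month-old LacQ140 mice whose mutant huntingtin was lowered from 2 months of age (LacQ140_2M) was compared with that of LacQ140 mice kept on the inducer throughout. The comparison held 20 libraries of the 217 in the series, 10 from each group, with 5 females and 5 males a side, chosen by the tissue, age and group in their labels. LacQ140 mice are C57BL/6 animals that carry 1 Htt allele with an expanded CAG repeat and Lac operator sequences around its transcriptional start, opposite a wild-type allele. All mice, wild-type littermates included, also carry a transgene in which the beta-actin promoter drives a modified Lac repressor in every tissue, so the lowering is global and not restricted to a cell type. The inducer IPTG keeps the repressor off the operators. LacQ140 mice received it from embryonic day 5 so that the mutant allele was derepressed, LacQ140_2M mice lost it at 2 months, and LacQ140_A mice never received it. Wild-type mice had IPTG from embryonic day 5 (WT_IPTG) or never (WT). Their labels write the operator beside a normal-length Htt allele, whereas the study's methods give only the repressor transgene for them. These 3 further groups had 10 striatal libraries each.

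Huntington disease is caused by expansion of the CAG repeat in the first exon of HTT. The striatal projection neurons degenerate first. They are GABAergic cells that integrate cortical glutamate with dopamine, and they fall into a direct pathway class with the D1 receptor and an indirect pathway class with the D2 receptor and enkephalin. In mice with a long repeat, transcripts that define these neurons decline, and transcripts of genes normally silenced by Polycomb complexes in neurons appear.

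The Htt promoter is shown because it is where the operators were placed and where the repressor acts. The 250 bases upstream of the annotated start of mouse Htt (RefSeq, GRCm38.p6, chr5:34761490-34761739, plus strand) are those of the unmodified allele, without operators. The capitals mark a cyclic AMP response element, TGACGTCA, 14 to 7 bases before the start, which contains the AatII recognition sequence GACGTC.
Htt: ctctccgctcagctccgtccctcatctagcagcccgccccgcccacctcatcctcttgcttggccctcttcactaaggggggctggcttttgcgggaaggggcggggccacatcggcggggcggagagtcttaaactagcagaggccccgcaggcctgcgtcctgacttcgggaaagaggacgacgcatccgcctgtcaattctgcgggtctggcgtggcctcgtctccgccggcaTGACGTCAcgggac

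Summed counts were between 45363140 and 58288099 per library in LacQ140_2M and between 39311796 and 58941671 in LacQ140. Levels are given in CPM, counts relative to the library total scaled by TMM factors. The defining transcripts of striatum were high in each of the 20 libraries, from 1621 to 2468 CPM for Ppp1r1b (DARPP-32) and from 967 to 1562 CPM for Penk, and 0 libraries went against their sex label. In bulk tissue, fewer cells of a type and less RNA per cell cannot be told apart. The labels do not say how mice were allotted to litters, so p-values measure the spread between these mice.

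Total Htt RNA, the sum of both alleles, was lower in LacQ140_2M without passing the test. It ranged from 73.2 to 102 CPM around a median of 91.4 in LacQ140_2M, and from 86.0 to 115.7 CPM around a median of 99.6 in LacQ140. The groups overlapped, and 4 LacQ140_2M mice lay below every LacQ140 mouse. The log2 fold change was -0.20 (SE 0.07, edgeR adjusted p = 0.151). Against WT_IPTG, total Htt in LacQ140_2M was lower by a log2 fold change of -0.32 (edgeR adjusted p = 0.00445), and LacQ140_A had a mean of 87.7 CPM. Reads of the mutant and the wild-type allele are not separated in these counts.

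Between LacQ140_2M and LacQ140, which differ in IPTG as well as in mutant huntingtin, 450 genes differed at 6 months, 252 higher (risen) and 198 lower (fallen) in LacQ140_2M, that is 1.26% of the 35808 genes tested (0.704% risen, 0.553% fallen). Calls required a change of at least 1.2-fold and, in edgeR's quasi-likelihood test with Benjamini-Hochberg adjustment, an adjusted p under 0.05. The changes were moderate. The median size among called genes was 0.41 on the log2 scale, and 42 genes changed at least 2-fold. Among 13448 genes with a mean log2 CPM of at least 1, 212 rose (1.58%) and 143 fell (1.06%). In 53 of these genes (0.394%) the 10 LacQ140_2M mice and the 10 LacQ140 mice did not overlap, and 33 of the risen and 8 of the fallen calls were among them.

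Of 28 genes listed for the signalling machinery of the projection neuron, 17 rose and 0 fell, beside 0.704% and 0.553% of all genes tested, and the median log2 fold change over the 28 was 0.30, against 0.00 over all genes tested. All 28 had a fold change above 0 and 25 had an unadjusted p under 0.05. Scn4b, the beta-4 subunit of voltage-gated sodium channels that shapes resurgent current (chr9:45138395-45154152), ranged from 1161 to 1584 CPM with a median of 1338 in LacQ140_2M, and from 702 to 1123 CPM with a median of 935 in LacQ140. Its groups did not overlap, and the log2 fold change was 0.58 (SE 0.08, edgeR adjusted p = 7.43e-07). Pde10a, the phosphodiesterase that degrades cAMP and cGMP in these neurons (chr17:8525372-8986648), ranged from 853 to 1190 CPM in LacQ140_2M (median 1038) and from 548 to 924 CPM in LacQ140 (median 774). In this gene 9 of the 10 LacQ140_2M mice lay above every LacQ140 mouse, and the change was 0.46 ± 0.08 on the log2 scale (fold change ± SE, edgeR adjusted p = 0.000123). Adcy5, the main striatal adenylyl cyclase (chr16:35154877-35305738), ranged from 877 to 1132 CPM against 673 to 972 CPM, with medians of 984 and 825, and it rose by 0.30 ± 0.08 on the log2 scale (fold change ± SE, edgeR adjusted p = 0.0176). The Adcy5 groups overlapped, and the call was lost without the LacQ140 mouse M2 (log2 fold change 0.27).

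The member of that list with the smallest p was Arpp21, a cAMP-regulated phosphoprotein, at 1310 ± 68.4 CPM in LacQ140_2M and 999 ± 74.4 CPM in LacQ140 (mean ± SD, n = 10 each; edgeR adjusted p = 9.12e-08). Ryr1, a calcium release channel of the endoplasmic reticulum, rose by a log2 fold change of 0.75, Itpr1, the IP3 receptor, by 0.32, Ppp3ca, the catalytic subunit of calcineurin, by 0.29, and Camk4 by 0.29. Cnr1, the cannabinoid CB1 receptor, rose by 0.51 and Rgs9, the GTPase accelerator of striatal receptors, by 0.33. Pde1b, Camkk2, Dgkb, Strn, Actn2 and Rasd2 were also among the 17. Ppp1r1b did not pass. It ranged from 1983 to 2468 CPM in LacQ140_2M (median 2210) and from 1621 to 2220 CPM in LacQ140 (median 1800), 5 LacQ140_2M mice lay above every LacQ140 mouse, and the log2 fold change was 0.22 (SE 0.09, edgeR adjusted p = 0.229).

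Markers of both projection neuron classes contained risen members. Of 10 indirect pathway markers tested from a list of 11, 3 rose and 0 fell, with a median of 0.10, and of 10 direct pathway markers 1 rose and 0 fell, with a median of 0.02. The fold change was above 0 in 7 of the 10 indirect and 6 of the 10 direct markers. All 20 had a mean log2 CPM of at least 1, where 1.58% of all genes rose. Penk, the enkephalin precursor (chr4:4133531-4138819), ranged from 1308 to 1562 CPM with a median of 1455 in LacQ140_2M and from 967 to 1157 CPM with a median of 1038 in LacQ140. Every LacQ140_2M mouse lay above every LacQ140 mouse, and the change was 0.45 ± 0.05 on the log2 scale (fold change ± SE, edgeR adjusted p = 3.84e-08). Drd2 (chr9:49340627-49408177) ranged from 183 to 254 CPM (median 209) against 120 to 195 CPM (median 156), a change of 0.43 ± 0.08 on the log2 scale (fold change ± SE, edgeR adjusted p = 0.0012) and 7 LacQ140_2M mice above the LacQ140 range. Adora2a, the adenosine receptor that opposes D2 signalling, was the third risen indirect marker, at 0.34. Drd1 (chr13:54051183-54055705) ranged from 203 to 254 CPM with a median of 220 against 155 to 198 CPM with a median of 179. Its groups did not overlap, and the log2 fold change was 0.33 (SE 0.05, edgeR adjusted p = 4.9e-05). Chrm4, the muscarinic M4 receptor and the next direct pathway marker by p, had a log2 fold change of 0.23 and an edgeR adjusted p of 0.261. Counts of risen markers in lists of this size were not tested against each other.

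**Figure D1:**
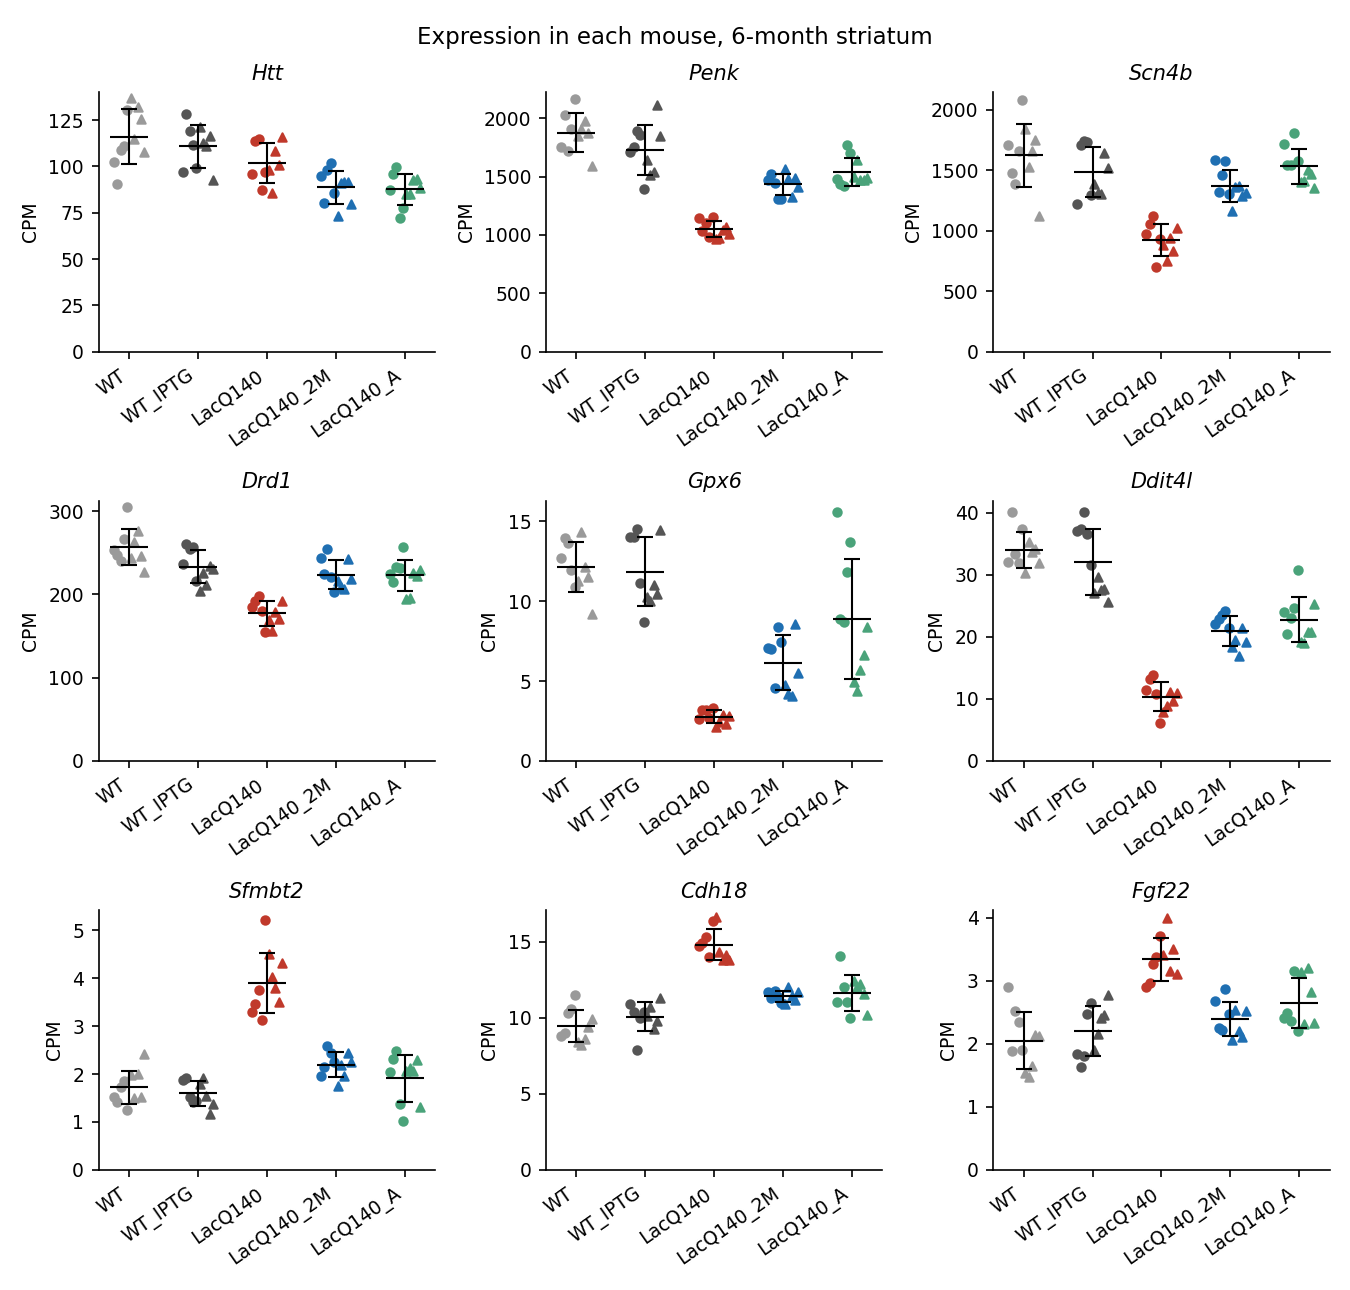
CPM (linear axis from 0) of 9 named genes in each mouse of the 5 groups of 6-month striatum; circles are females, triangles are males, and the bars give the mean ± SD of 10 mice. For Penk, Scn4b, Drd1, Gpx6 and Ddit4l the LacQ140_2M mice sit above all LacQ140 mice, for Sfmbt2, Cdh18 and Fgf22 below all of them, and for Htt the groups overlap.

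The 8 risen genes with the largest fold among those whose groups did not overlap were Gpx6, Ddit4l, Clspn, Ptpn7, Coch, Fam198b, Krt9 and Neto2. Gpx6, a glutathione peroxidase (chr13:21312125-21319624), ranged from 4.07 to 8.58 CPM with a median of 6.25 in LacQ140_2M and from 2.12 to 3.28 CPM with a median of 2.76 in LacQ140. This was a 2.24-fold difference (log2 fold change 1.16, SE 0.16, edgeR adjusted p = 2.89e-06), and the spread within LacQ140_2M, an SD of 1.74 CPM, exceeded the 0.401 CPM within LacQ140. Ddit4l, an inhibitor of mTORC1 signalling (chr3:137621612-137628333), ranged from 16.9 to 24.2 CPM with a median of 21.4 against 6.17 to 13.9 CPM with a median of 10.8. It rose 2.02-fold (log2 fold change 1.02, SE 0.10, edgeR adjusted p = 3.67e-11). Clspn, which encodes the replication checkpoint protein claspin (chr4:126556935-126593903), had medians of 13.4 and 7.86 CPM and a log2 fold change of 0.86, and Ptpn7, a tyrosine phosphatase of MAP kinases (chr1:135132700-135145317), had medians of 10.4 and 6.42 CPM and a log2 fold change of 0.70.

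The other 4 rose by 0.58 to 0.66. Coch, a secreted matrix protein best known from the inner ear (chr12:51593341-51605771), ranged from 63.9 to 85.8 CPM against 38.1 to 54.7 CPM. Neto2, an auxiliary subunit of kainate receptors (chr8:85636588-85700924), ranged from 63.3 to 90.6 CPM against 39.95 to 58.1 CPM. Fam198b (chr3:79884533-79946280) was at 8.46 ± 0.787 against 5.43 ± 0.96 CPM, and the keratin gene Krt9 (chr11:100186781-100193246) at 19.5 ± 3.58 against 12.6 ± 1.58 CPM (mean ± SD, n = 10 each). Neto2 was the only member to rise among 33 glutamate receptor genes and auxiliary subunits tested, none of which fell, and the list's median was 0.07. This 1 call is near the 1.58% of all genes that rose at a mean log2 CPM of at least 1. Grik2, which encodes a kainate receptor subunit that Neto2 associates with, had an adjusted p of 0.0146 in edgeR and a log2 fold change of 0.23, under the 1.2-fold bound.

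Among the fallen genes whose groups did not overlap were Sfmbt2, Fgf22, Cdh18, Gprin1, Galnt16, Ahi1 and Pcdhb9. Sfmbt2, a Polycomb group protein (chr2:10370510-10595253), ranged from 1.75 to 2.58 CPM with a median of 2.22 in LacQ140_2M and from 3.13 to 5.21 CPM with a median of 3.77 in LacQ140 (log2 fold change -0.83, SE 0.11, edgeR adjusted p = 7.43e-07). Fgf22, a growth factor that organizes presynaptic terminals (chr10:79755076-79758596), ranged from 2.05 to 2.87 CPM against 2.91 to 3.99 CPM and fell by 0.49 on the log2 scale. Rnf126 overlaps it on the opposite strand, with a mean of 36.9 CPM in LacQ140, and whether counting used strand is not given in the sources used here, so the Fgf22 value is uncertain.

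Cdh18, Gprin1, Galnt16, Ahi1 and Pcdhb9 fell by 0.28 to 0.37. Cdh18, a classical cadherin (chr15:22549022-23474418), was at 11.4 ± 0.357 CPM against 14.8 ± 1.03 CPM (mean ± SD, n = 10 each). Gprin1, a G protein effector in neurite outgrowth (chr13:54736671-54749874), was at 30.6 ± 2.93 against 38.9 ± 4.57 CPM, and Galnt16, an enzyme that starts O-linked glycosylation (chr12:80518277-80630972), at 101 ± 5.41 against 126 ± 11.3 CPM. Ahi1, a protein of the ciliary transition zone (chr10:20952547-21080429), was at 136 ± 7.46 against 166 ± 12.9 CPM. Pcdhb9, a clustered protocadherin (chr18:37400855-37403909), was at 15.5 ± 1.02 against 18.8 ± 0.93 CPM. Protocadherins of a cluster are similar in sequence, and how their shared reads were divided is not given in the sources used here. Of 56 clustered protocadherins tested, 2 fell (Pcdhb9 and Pcdha5) and 0 rose, at a median of -0.08, and 52 of the 56 had a mean log2 CPM of at least 1, where 1.06% of all genes fell. The Pcdhb9 call was lost without the LacQ140_2M mouse F4 (log2 fold change -0.26), and the Pcdha5 call without any 1 of 4 mice (LacQ140_2M F4 and M3, LacQ140 M3 and M4; -0.34 to -0.33).

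Of 55 developmental transcription factors and related regulators tested from a list of 58, 4 fell, beside 0.553% of all genes tested, and 0 rose, with a median of -0.42, and 8 of the 55 reached a mean log2 CPM of 1. Wt1, the Wilms tumour zinc finger factor, was at 0.0748 ± 0.0532 CPM in LacQ140_2M and 0.605 ± 0.263 CPM in LacQ140 (log2 fold change -2.97, edgeR adjusted p = 1.83e-11). Onecut1 was at 0.0389 ± 0.0369 against 0.289 ± 0.218 CPM and Otp at 0.0461 ± 0.0375 against 0.236 ± 0.29 CPM, and Sfmbt2, at a mean of 1.60 CPM in WT_IPTG, was the remaining call. With low counts removed by filterByExpr, 20 of the list were tested and 2 fell, Wt1 and Sfmbt2. Among 22 striatal transcription factors, 2 rose (Rxrg by 0.40 and Foxo1 by 0.40) and 2 fell (Dlx2 by 0.41 and Gsx2 by 0.88), at a median of 0.09 and beside 0.704% and 0.553% of all genes. Rxrg is a retinoid X receptor of mature striatal neurons, whereas Dlx2 and Gsx2 act in striatal progenitors. Gsx2 was at 0.193 CPM in LacQ140_2M and 0.351 CPM in LacQ140.

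Ion channels, receptors and activity genes had single calls in most lists, and nearly all members had a mean log2 CPM of at least 1, where 1.58% of all genes rose. Of 38 potassium channel genes, 3 rose (Kcnab1 by 0.28, Kcnip2 by 0.28 and Kcnh4 by 0.38) and 0 fell, at a median of 0.11. The Kcnab1 call was lost without the LacQ140_2M mouse F1 or the LacQ140 mouse F4 (0.25 to 0.26), and the Kcnip2 call without the LacQ140 mouse M2 or M4 (0.26 in both). Of 15 GABA receptor genes, Gabrd, the delta subunit of extrasynaptic receptors, rose by 0.27, a call lost without any 1 of 5 mice (LacQ140_2M F2, M1 and M5, LacQ140 M4 and M5; 0.25 to 0.26). Gabre had an edgeR adjusted p of 0.0583 at a log2 fold change of -1.39, where its means were 0.207 and 0.563 CPM. The median of the GABA receptor list was -0.01, with 7 of the 15 above 0. Of 26 immediate early genes, Homer1, a scaffold of metabotropic glutamate receptors, rose by 0.43, while Egr2 had a log2 fold change of 0.61 that did not pass (SE 0.23, edgeR adjusted p = 0.238). The median of the 26 was -0.05, with only 10 of them above 0. Of 22 heat shock chaperones, Chordc1, a cochaperone of HSP90, rose by 0.40 with an edgeR adjusted p of 0.0483, and the call was lost in 15 of 20 fits with 1 library left out (0.34 to 0.41). The next member of that list by p was Hspa2, at -0.15. The 23 cholesterol synthesis genes held 0 calls in edgeR and 0 in DESeq2, 3 had an unadjusted p under 0.05, and their median was 0.02. Mvk and Tm7sf2, the members with the smallest p, were at -0.22 and -0.13.

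The lists for oligodendrocytes (20 genes), astrocytes (17), microglia (19) and endothelial cells with pericytes (19) held 0 calls in either direction in edgeR, beside 1.26% of all genes called. The only call in DESeq2 was Kcnj8 of the last list, which rose by 0.28 there and in edgeR after filterByExpr. Their medians were 0.07, 0.07, 0.08 and 0.17, and 4, 4, 4 and 10 members had an unadjusted p under 0.05. All 19 endothelial and pericyte markers had a fold change above 0, with Kcnj8 at 0.27 and Rgs5 at 0.20 in edgeR, and their summed level ranged from 761 to 862 CPM in LacQ140_2M against 675 to 807 CPM in LacQ140. The members with the smallest p in the other 3 lists were Ermn (0.23) and Ugt8a (0.37), Aqp4 (0.20) and Sox9 (-0.19), and Cx3cr1 (0.18) and P2ry12 (0.18).

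Of 16 interneuron markers, Calb2 (calretinin) was the 1 call, beside 0.553% of all genes fallen. It fell by 1.19 on the log2 scale, at 4.41 ± 1.33 CPM against 10.0 ± 7.19 CPM, a call lost without the LacQ140 mouse M2 (-0.87). The next by p, Pthlh, had a log2 fold change of 0.22. The median of the interneuron list was 0.02, with 10 of the 16 above 0. Cux2, a factor of upper cortical layers, fell by 0.44 as the 1 call among 15 cortical excitatory markers, beside 0.553% of all genes fallen. Nrn1 of the same list was at -0.73 without passing. The summed level of the cortical list ranged from 252.9 to 320 CPM in LacQ140_2M and from 263 to 354 CPM in LacQ140. Of 16 choroid plexus markers Ace rose by 0.33, beside 0.704% of all genes risen, and Enpp2 was at 0.18. The list's median was -0.26, only 3 of the 16 had a fold change above 0, and 5 reached a mean log2 CPM of 1. The summed level of the 16 ranged from 284 to 350 CPM against 247.7 to 385 CPM. The 12 pituitary and blood markers held 0 calls in edgeR and in DESeq2 and 0 members with an unadjusted p under 0.05, with Hbb-bt at -0.15 and Hba-a1 at -0.13. They summed to 210 to 397 CPM against 226 to 384 CPM, and 1 of the 12 was at 0 in all 20 libraries. The part of such cells in the results was not tested.

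**Figure D2:**
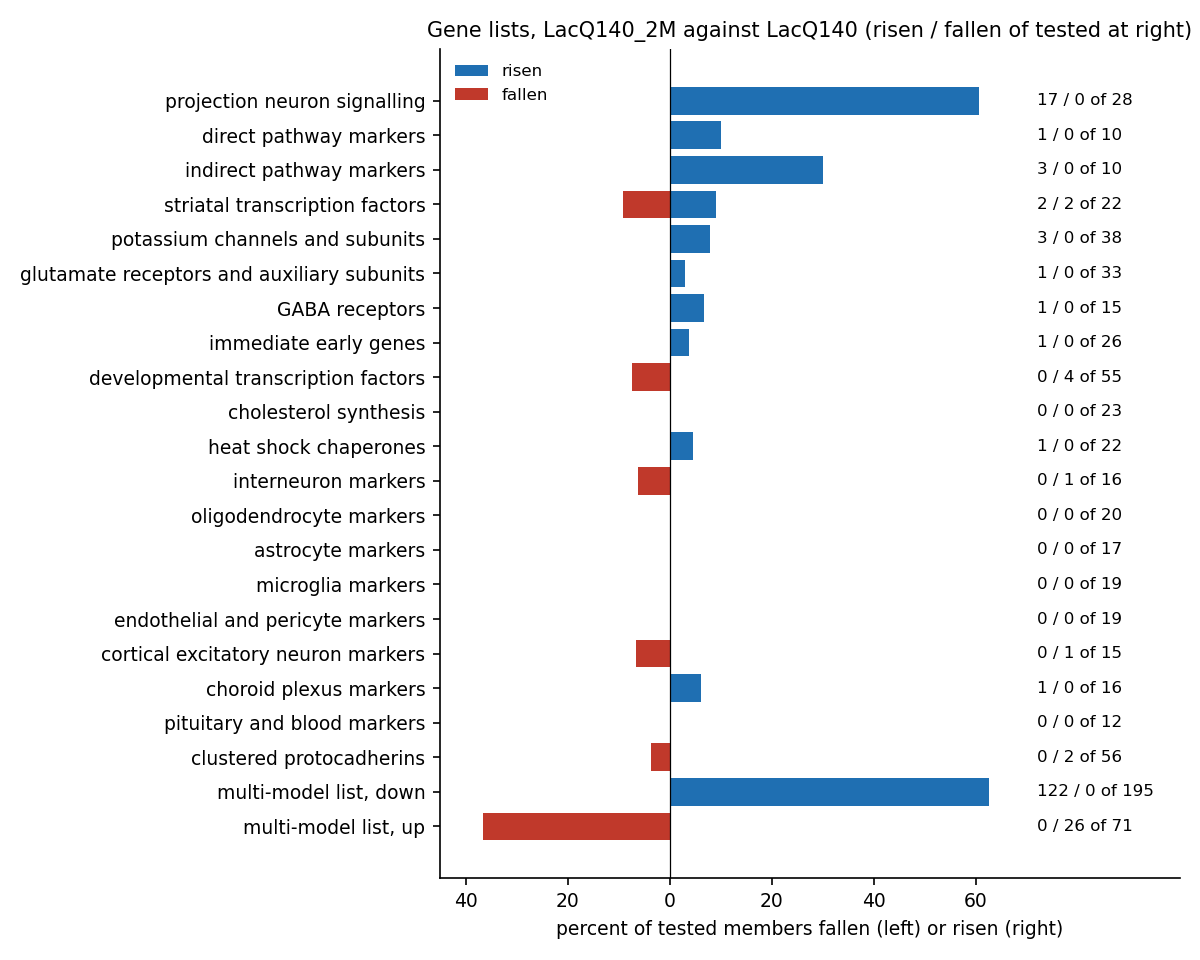
Percent of the tested members of each gene list that rose (right, blue) or fell (left, red) in LacQ140_2M against LacQ140, with the counts risen / fallen of tested beside each bar. Bars for projection neuron signalling (17 / 0 of 28) and the multi-model lists (122 / 0 of 195 and 0 / 26 of 71) are the longest, and the lists of glial and vascular markers have no bar.

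A further list holds genes that change in striatum across several Huntington disease mouse models. Of its 195 genes that go down in those models, 122 rose in LacQ140_2M, beside 0.704% of all genes tested, and 0 fell, at a median log2 fold change of 0.33, and 194 of the 195 had a fold change above 0. Of its 71 genes that go up, 26 fell, beside 0.553% of all genes, and 0 rose, at a median of -0.26. It was set in earlier work. The study states that its genes also change in LacQ140 mice, and whether libraries used here had a part in its choice is not given in the sources used here, so its direction is not independent evidence. The smallest p among the first part belonged to Ddit4l and Coch, and among the second to Wt1 and Cbx8.

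Mice of another age that share no library with the 6-month tables gave lists chosen apart from these 20 mice. In 12-month striatum, 9 LacQ140 mice were compared with 10 WT_IPTG mice, and 3340 of 35386 genes (9.44%) were called. Without genes called for IPTG at that age, 1685 had fallen and 1606 had risen. Of the 1685 that fell at 12 months, 13.3% rose in LacQ140_2M at 6 months, against 0.704% of all genes, and 0 fell, and 769 rose against 8 fell at an unadjusted p under 0.05. Of the 1605 tested that rose at 12 months, 140 fell at 6 months (8.72%, against 0.553%) and 0 rose, and 603 fell against 9 rose at an unadjusted p under 0.05. DESeq2 gave 0 calls in the same direction as the 12-month change in either list. Restricted to a mean log2 CPM of at least 1, the shares were 14.5% of 1326 and 10.9% of 990, beside 1.58% and 1.06% of all genes at that level.

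The median log2 fold change of the fallen list in LacQ140_2M against LacQ140 was 0.16, with 1468 of 1685 genes above 0, and that of the risen list was -0.16, with 1338 of 1605 below 0. For the 251 that fell at least 2-fold, 78 rose at 6 months (31.1%) at a median of 0.46 with 213 above 0, and for 319 tested that rose at least 2-fold, 31 fell (9.72%) at a median of -0.32 with 86 of them above 0. Of these lists 67 and 24 genes reached a mean log2 CPM of 1. Of the 67, 49 rose at 6 months (73.1%), and of the 24, 10 fell (41.7%), beside 1.58% and 1.06% of all genes at that level. Read from the other side, all but 28 of the 252 risen genes had fallen at 12 months, these 28 not being in either list, and 140 of the 198 fallen genes had risen at 12 months while 58 were in neither list. Across 13448 genes Pearson's r between the 12-month change and the 6-month lowering effect was -0.61 and Spearman's rho -0.54. This is a description across genes, which are not independent replicates.

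**Figure D3:**
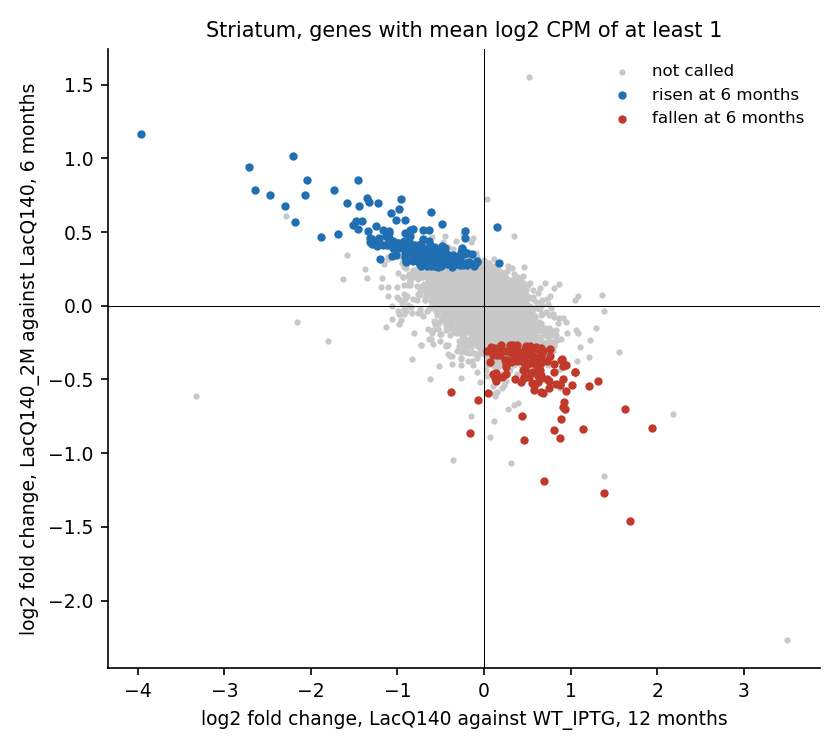
Log2 fold change of LacQ140 against WT_IPTG at 12 months (x axis) and of LacQ140_2M against LacQ140 at 6 months (y axis) in striatum, 1 point per gene for 13448 genes with a mean log2 CPM of at least 1. Genes that rose at 6 months (blue) lie almost wholly to the left of 0 and those that fell (red) almost wholly to the right.

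For each 6-month mouse the mean log2 CPM of 1326 genes that fell at 12 months was subtracted from that of 990 that rose, and the WT_IPTG mean was set to 0, so a higher score means levels nearer to those of 12-month LacQ140 mice. The LacQ140 mice ranged from 0.36 to 0.66 with a median of 0.50, and the LacQ140_2M mice from 0.09 to 0.26 with a median of 0.20. All 10 LacQ140_2M mice lay below the lowest LacQ140 mouse, and 6 of the 10 lay above the highest WT_IPTG mouse, whose group ranged from -0.17 to 0.15. The LacQ140_A mice ranged from 0.03 to 0.30 with a median of 0.21, and the WT mice from -0.19 to 0.23. The slope of log2 level on transcript length, a technical measure of a library, spanned 0.15 to 0.36 in LacQ140_2M and 0.15 to 0.35 in LacQ140, and 474 genes were called with this slope as a covariate.

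**Figure D4:**
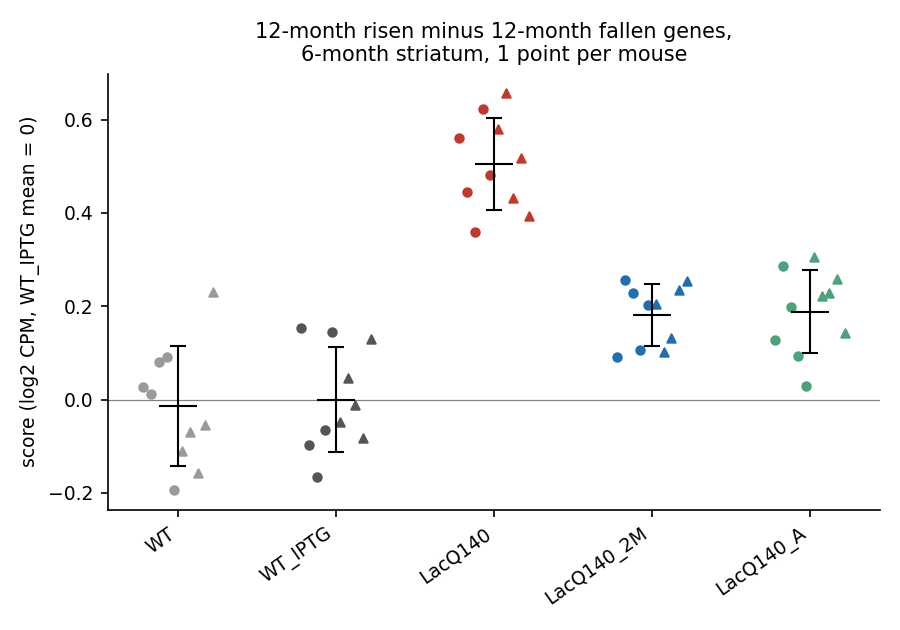
Score of each 6-month mouse (y axis, log2 CPM, mean of genes risen minus mean of genes fallen in 12-month LacQ140 striatum, WT_IPTG mean at 0) in the 5 groups; circles are females, triangles are males, bars give the mean ± SD of 10 mice. The LacQ140_2M mice, from 0.09 to 0.26, lie between the LacQ140 mice, from 0.36 to 0.66, and the centre of the WT_IPTG mice.

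A contrast of the inducer alone, WT against WT_IPTG, uses none of the 20 libraries. It sets mice never given IPTG against mice given it throughout, so it is not a withdrawal at 2 months, and 209 of 35808 genes (0.584%) were called in it. Called in both contrasts were 8 genes, 1.78% of the 450 and 3.83% of the 209. Of these, 1 moved in the same direction (Fgf3, up by 0.55 and by 0.49), and 7 moved in opposite directions. The 7 were named after their values were seen and are Mex3d, Bahcc1, Clic5, Fbn1, P2ry14, Gm15721 and Dusp11. The genes that rose in LacQ140_2M had a median log2 fold change of 0.05 in WT against WT_IPTG, and those that fell had 0.04.

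The 2 contrasts were also tested against each other in 1 model, as LacQ140_2M against LacQ140 minus WT against WT_IPTG. This difference was called for 451 genes (1.26%), with 209 below 0 and the others above. The smallest p belonged to Cbx8, a chromobox subunit of the Polycomb complex PRC1, with a difference of -0.99 on the log2 scale (SE 0.13, edgeR adjusted p = 8.81e-06). It fell by 0.70 in LacQ140_2M against LacQ140 and was at 0.29 in WT against WT_IPTG, where it did not pass. Ddit4l followed with 0.93 and Slc4a11, a membrane transporter, with 1.09. Among the study's striatal genes the difference passed for Scn4b (0.45, adjusted p = 0.0172), Penk (0.33, adjusted p = 0.0111) and Pde10a (0.42, adjusted p = 0.0307) in edgeR. It did not pass for Drd1 (0.20, adjusted p = 0.22), Drd2 (0.27, adjusted p = 0.299), Adcy5 (0.13, adjusted p = 0.718) or Ppp1r1b (0.10, adjusted p = 0.871), whose values in WT against WT_IPTG were 0.14, 0.16, 0.18 and 0.13. For Scn4b, Penk and Pde10a the values in WT against WT_IPTG were 0.13, 0.12 and 0.04. The 8 largest risen genes and the fallen ones were chosen on LacQ140_2M against LacQ140, which is 1 side of this difference, so their passing or not is no test.

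**Figure D5:**
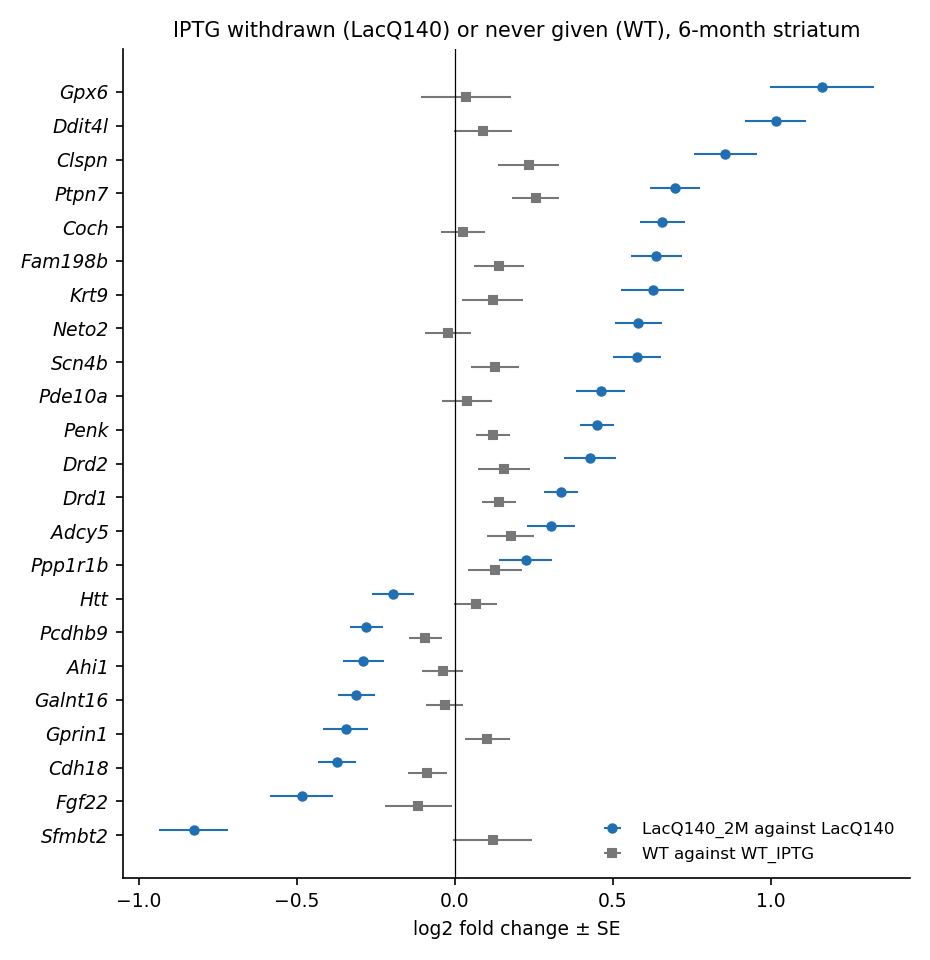
Log2 fold change ± SE of 23 named genes for withdrawal of IPTG at 2 months in LacQ140 mice (LacQ140_2M against LacQ140, blue circles) and for its absence throughout in wild-type mice (WT against WT_IPTG, grey squares), 10 mice per group. The blue points run from -0.83 (Sfmbt2) to 1.16 (Gpx6), and the grey ones from -0.12 (Fgf22) to 0.26 (Ptpn7).

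No gene passed the test of a sex difference in the lowering effect. It called 0 genes (0.0%) in edgeR and 0 in DESeq2, with 1324 genes at an unadjusted p under 0.05 in edgeR and 1057 in DESeq2. The smallest p belonged to Myo1f, an unconventional myosin of immune cells, with a difference of 0.72 on the log2 scale (SE 0.16, adjusted p = 0.777), and the next were Pla2g4a (0.72) and Gm7598 (1.16). Ddit4l rose by 1.04 in females and by 0.98 in males, Penk by 0.38 and 0.52, Scn4b by 0.60 and 0.55, and Gpx6 by 1.2 and 1.11. Total Htt had log2 fold changes of -0.14 in females and -0.25 in males. In that model, fitted over both sexes, 0.542% of genes were called in females and 0.218% in males, whereas fits of 1 sex alone called 0.268% and 0.338%, so the order of these counts depends on the fit.

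In the cortex of the same 20 mice, the contrast of LacQ140_2M with LacQ140 called 0 of 35987 genes (0.0%) in edgeR, with 3498 at an unadjusted p under 0.05. The difference between the effects in striatum and cortex was called for 14 genes (0.0392% of 35672), 10 above and 4 below 0, and for 65 in DESeq2. Ryr1 led with a difference of 1.13 (SE 0.15, adjusted p = 0.00129), from 0.75 in striatum and -0.38 in cortex. Egr2, a zinc finger factor induced by activity, had a difference of 0.88 (adjusted p = 0.003), from 0.61 and -0.25, neither of which passed alone. In striatum of WT against WT_IPTG, Egr2 was at 0.69, also without passing (edgeR adjusted p = 0.195). Lmo2, a LIM domain adaptor of transcription complexes, had a difference of 0.47 (adjusted p = 0.003), from 0.41 and -0.06, and Ddit4l 0.80 (adjusted p = 0.003), from 1.02 and 0.23. For Penk, Drd1 and Scn4b the cortical values were 0.48, 0.52 and 0.23, and none of the differences passed.

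LacQ140_2M mice still differed from wild-type mice on the inducer. Against WT_IPTG 383 genes were called (1.07%), 185 higher and 198 lower. LacQ140_2M mice were off IPTG and WT_IPTG mice on it, so this contrast holds a difference in the inducer too, for which WT against WT_IPTG called 209 genes. Because LacQ140 and LacQ140_2M were each set against the same WT_IPTG libraries, the values are given side by side. Gpx6 was at -2.11 in LacQ140 and -0.95 in LacQ140_2M, Ddit4l at -1.63 and -0.61, Krt9 at -1.25 and -0.62, and Penk at -0.72 and -0.27, and these 4 were called in both. Scn4b was at -0.69 and -0.11, Pde10a at -0.60 and -0.13, Drd1 at -0.39 and -0.06, and Coch at -0.83 and -0.18, and none of these 4 passed in LacQ140_2M. Sfmbt2 was at 1.30 and 0.47 and was called in both. Of the 28 projection neuron signalling genes 0 were called against WT_IPTG in either direction, of the 195 multi-model genes that go down 26 were lower, and of the 71 that go up 20 were higher. Markers of other cells also moved in this contrast. Of 20 oligodendrocyte markers 5 were lower and 1 was higher, and their summed level ranged from 12354 to 14506 CPM in LacQ140_2M (median 13327), from 11077 to 13886 CPM in LacQ140 (median 12805) and from 14382 to 18492 CPM in WT_IPTG (median 16412). Of 16 choroid plexus markers 3 were lower and 0 higher. Their summed level ranged from 308.6 to 1142 CPM in WT_IPTG (median 332) and from 284 to 350 CPM in LacQ140_2M (median 307). The microglial, vascular and cortical lists held 1 lower marker each, and of 56 clustered protocadherins 7 were higher and 0 lower. Their part in the result was not tested.

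Against LacQ140_A, in which the mutant allele was repressed from conception, 9 genes were called (0.0251%), 2 higher and 7 lower in LacQ140_2M. The 3 hormone genes Gh, Prl and Cga, members of the pituitary list, had log2 fold changes of -5.58, -5.67 and -4.86. Their highest values were 43.9, 74.3 and 2.18 CPM in single LacQ140_A mice, against 1.38, 0.423 and 0.0645 CPM in LacQ140_2M. None of the 23 main named genes passed, and the widest difference among them was Gpx6, with means of 6.15 CPM in LacQ140_2M and 8.89 CPM in LacQ140_A (log2 fold change -0.53, edgeR adjusted p = 0.244).

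The response element of the Htt promoter was counted in promoters of called genes, from 250 bases before to 50 after each RefSeq start, with any of a gene's starts sufficing. The motif TGACGTCA reads the same on both strands. It was present for 479 of 17930 tested genes matched by symbol (2.67%), for 1 of 177 matched risen genes (0.565%) and for 4 of 150 matched fallen genes (2.67%), and in 1.79% of all 32851 promoters. Among 10313 matched genes with a mean log2 CPM of at least 1, it was present for 378 (3.67%). The 5 called genes that hold it are shown with 10 bases on each side of the element, which is in capitals, on the strand of the gene (RefSeq, GRCm38.p6). Ffar3 rose and the other 4 fell, and Cbx8 is the gene with the smallest p in the test against WT and WT_IPTG. A match of these letters is a description of the window and not a binding site.
Ffar3: gcgagtggagTGACGTCAtaggcaccat
Cbx8: ggaggagaacTGACGTCAgcgggagagt
Vsig8: ctgtactctaTGACGTCAacttgatggg
Tubb2a: tctgcccccaTGACGTCAgcgggactgg
Fam71e1: gtgacgtcgtTGACGTCAcggaacgccg
The windows lie at chr7:30856229-30856256 (minus strand), chr11:119040925-119040952 (minus), chr1:172559807-172559834 (plus), chr13:34078050-34078077 (minus) and chr7:44496564-44496591 (plus).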

How the data were processed

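Total RNA of the right striatum was sequenced in paired ends. The authors deposited expected counts per gene, not normalized, 1 table per age; 33.8% of the 6-month striatal values were not whole. The submitters' processing notes name GRCm38; aligner, quantification program and annotation are not given in the sources used here. Gene names and positions came from GENCODE vM21 (54495 of 54532 identifiers matched). Counts were rounded, genes with at least 1 count over the 50 striatal libraries of 6 months were kept, and 5 group means were fitted in edgeR 4.0.16 with TMM factors and the quasi-likelihood F-test; the standard error was taken from the F statistic. Calls needed an adjusted p-value under 0.05 (Benjamini-Hochberg over all genes) and a 1.2-fold change. The sex test used groups by sex, and the tissue test fitted striatum and cortex of the 20 mice together, with the mouse as a block and the interaction of tissue and group. Alternatives were DESeq2 1.42.0, filterByExpr, DESeq2 size factors, sex or length slope as covariate, a replicate block, fewer groups, no fold bound, single sexes and each library left out.

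Among 90 pairs of libraries within the 2 groups the lowest chi-square per degree of freedom was 10.91, so none was counted as a duplicate. Named genes were Htt, 7 striatal genes of the study, the 8 risen and 8 fallen genes with the largest fold at a mean log2 CPM of at least 1 without overlap between groups, the 2 members of each of 20 gene lists and of the multi-model list with the smallest p, and the 3 genes with the smallest p in each difference test. Members and lists were chosen with earlier results of these data known. Some items that met this rule are not reported here.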

Additional observations from a re-analysis of the deposited data

Results flagged for a closer look

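The lowering effect differed between striatum and cortex for 14 genes by the test of that difference, with Ryr1 at 1.13, Egr2 at 0.88 and Lmo2 at 0.47 on the log2 scale (striatum minus cortex). In striatum, Egr2 was at 0.61 in LacQ140_2M against LacQ140 and at 0.69 in WT against WT_IPTG, neither of which passed. The contrast of mice off and on IPTG differed between LacQ140 (withdrawn at 2 months) and wild-type striatum (never given) for 451 genes by the same kind of test, with Cbx8 at -0.99, Ddit4l at 0.93 and Slc4a11 at 1.09 on the log2 scale (LacQ140 minus WT).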

How the results depend on the processing

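Shares of called genes are percentages of the genes tested (35808, or 35672 for the tissue difference) or, for the 12-month lists, of the 1685 and 1605 genes. The 1.26% called for LacQ140_2M against LacQ140 came to 0.268% in females only (0.17% risen, 0.0977% fallen) and 0.338% in males only (0.237% and 0.101%), which hold fewer mice, and stayed within 1.5 times under all other settings. Of the genes fallen at 12 months 2.79% rose in females only and 4.93% in males only, and of those risen 1.62% and 1.74% fell; of the 251 that fell at least 2-fold at 12 months 31.1% rose. The difference from WT against WT_IPTG was called for 1.99% with filterByExpr, 2.03% with the length slope, 0.221% in females and 0.821% in males. The tissue difference was called for 0.182% with DESeq2, 0.0813% with filterByExpr, 0.00841% in females and 0.0196% in males. LacQ140_2M against WT_IPTG gave 0.0838% in females and 0.363% in males, and against LacQ140_A 0.0559% with DESeq2, 0.00559% in females, 0.00279% in males and 0.014% with only the libraries compared. Except for the smaller sample numbers, the cause was not tested.

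With 1 library left out, the shares ranged from 0.944% to 1.45% for LacQ140_2M against LacQ140 (0.547% to 0.801% risen, 0.38% to 0.673% fallen), from 0.849% to 1.56% for the difference from WT against WT_IPTG, and from 10.7% to 15.1% and 6.48% to 9.84% for the 12-month lists, and stayed at 0 for the sex difference. The tissue difference ranged from 0.0224% to 0.0757% with 1 mouse left out, against 0.0392% (14 genes) with all. It held 23 genes without the LacQ140_2M mouse F1, 27 without F3 and 9 without M2, and 24 without the LacQ140 mouse F3 and 8 without M4.

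Replicate numbers did not pair the groups: the deviations of same-numbered mice correlated by -0.145 on average, and those of other pairs by 0.036. A replicate block gave 1.13%, 0.653% risen and 0.48% fallen, for LacQ140_2M against LacQ140, 1.13% for the difference from WT against WT_IPTG, 1.01% against WT_IPTG, 0.0335% against LacQ140_A, and 12.5% and 7.91% for the 12-month lists.

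Of the 23 main named genes, 0 changed direction under the settings run, and 10 lost a call in at least 1 of 29 settings, 14 of the 16 losses with 1 sex only. Of 40 genes named from lists and difference tests, 12 lost a call in 49 fits, 20 of them with 1 sex only, and 6 gained one in 17. Genes named for the sex test changed sign: Myo1f and Pla2g4a were at -0.077 and -0.045 in males only, and Gm7598, at -0.043 in all mice, was at 0.55 in females only and from -0.117 to 0.045 with 1 library left out. With females only, potassium channel calls went from 3 to 0 and projection neuron signalling calls from 17 to 4, indirect pathway calls from 3 to 1, and multi-model calls from 122 to 31 and 26 to 7. Depth limits genes under about 0.1 CPM, such as Wt1 and Onecut1 in LacQ140_2M.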
